A study of Drosophila melanogaster with 10 samples.

Results

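The actin cytoskeleton regulators described here are 41 genes of the Drosophila ventral nerve cord (VNC), the part of the adult fly nervous system that lies in the thorax and serves the legs and wings. They were chosen by name as the genes for cytoplasmic actin, for proteins that nucleate, cap, cut, recycle or bundle its filaments, for nonmuscle myosins and the kinase and GTPases that act on them, and for the spectrin and moesin layer under the plasma membrane. The list was made with earlier results of these data known. All 41 were found among the 14352 genes of the count table, 36 by FlyBase gene ID and 5 (capt, Arp3, Arpc4, Sra-1 and zip) by gene name. Injured animals lost their head, 6 legs and both wings, and the VNC was taken 5 hr later. Uninjured animals kept these parts. All libraries shared a single sequencing lane. Both groups were w1118 adults of 3 to 10 days, males and females together, and each library was made from a pool of 60 to 80 VNCs (5 libraries per group). Age and pool size are those of the sample labels, and the methods of the study give a narrower age range and fewer VNCs per library. The groups also differed in how they were held for those 5 hr. Both groups were held on agar without food, injured animals on a plate at high humidity and uninjured animals in vials. Injury and housing cannot be told apart in these data. The libraries are bulk tissue, so fewer cells of a type and less RNA per cell cannot be told apart either.

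Actin filaments grow by the addition of actin monomers, which profilin delivers to the growing ends. The Arp2/3 complex starts new filaments as branches on old ones and is switched on by WASp below the GTPase Cdc42 and by the SCAR complex below Rac, while formins start unbranched filaments. Capping protein stops growth, cofilin and gelsolin cut filaments, fimbrin, fascin and alpha-actinin hold them in bundles, and nonmuscle myosin II pulls on them after its light chain is phosphorylated. In the nervous system this machinery shapes growth cones and synapses in neurons, and in glia it drives the membrane extension and engulfment with which these cells answer axon injury.

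Library totals were 5146470 to 6625705 counts in injured libraries and 5763891 to 6640492 counts in uninjured libraries, and scaling factors (TMM) ran from 0.968 to 1.04. Of 9365 genes tested, 1281 (13.7%) passed an adjusted p of 0.01 in edgeR's quasi-likelihood test, 707 of them higher in injured VNCs and 574 lower. Injured library 3 stood apart as the lowest in muscle transcripts, and injured library 4 as the highest. The summed level of 18 muscle marker genes was 1134 CPM (counts scaled to the same total in every library) in injured library 3. It was 9045 CPM in injured library 4 and 3445 to 5084 CPM in the other injured libraries, against 2410 to 3986 CPM in uninjured libraries. Because of the low value, the counts and medians of the actin regulators are also given without injured library 3. Summed neuron markers were 13330 to 16400 CPM in injured and 12630 to 16650 CPM in uninjured libraries, with 0 of 12 called by edgeR, DESeq2 or limma-voom, 2 at an unadjusted p under 0.05 in edgeR, and 2 called higher without injured library 1. Of 10 glia markers 2 were higher and 3 lower (summed level 5716 to 8997 CPM in injured and 6927 to 9970 CPM in uninjured libraries). Their log2 fold changes were negative for 8 and positive for 2, with a median of -0.35. Of 8 hemocyte markers tested 3 were lower (1133 to 1820 CPM in injured and 1670 to 2286 CPM in uninjured libraries), and of 7 gut markers 6 were lower (57.1 to 110.5 CPM in injured and 124.9 to 1109 CPM in uninjured libraries). Of 7 fat body markers 1 was lower (4871 to 6036 CPM in injured and 6791 to 9215 CPM in uninjured libraries). The hemocyte and gut counts depended on single libraries. Without injured library 3, 1 hemocyte and 2 gut markers were lower, and over all 10 libraries left out in turn 1 to 3 hemocyte and 2 to 6 gut markers were lower. Hemocyte counts of 1 came without injured library 3, 4 or 5 or uninjured library 2, a count of 2 without uninjured library 4, and gut counts of 2 or 3 without any 1 injured library and of 4 without uninjured library 3. No deposited count was under 1, so a count of 1 may stand for none, and each marker of these lists was above 1 in at least 1 library. Their part in the values below was not tested.

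Most of the actin regulators that passed the test were higher after injury. Of the 41 genes 40 passed the filter on low values (a mean deposited TPM above 2 in at least 1 group). In the same test 16 of these 40 were higher in injured VNCs, where 7.55% of all genes tested were higher, and 2 were lower, where 6.13% of all genes tested were lower. The other 22 did not pass. The changes were small, and none of the 40 reached 2-fold with an adjusted p under 0.01, as 4.64% of all genes tested did. The median log2 fold change of the 40 was 0.24, against -0.0009 over all genes tested, and 33 were positive and 7 negative. Since the genes were chosen with earlier results known, their counts and median are described and not tested. All 5 injured libraries lay above all 5 uninjured libraries for 17 of the 40 genes (8.8% of all genes tested) and below them for 2 (7.73% of all genes tested). Without injured library 3, 13 were higher (6.36% of all genes tested) and the same number as before, 2, were lower (5.33% of all genes tested). The 3 genes that no longer passed without it were cpb, Cip4 and jar, with adjusted p = 0.017, 0.0295 and 0.0141 in edgeR's test. The 41 genes together held 1.31% ± 0.04 of all counts in injured libraries and 1.16% ± 0.03 in uninjured libraries (SD, n = 5 each).

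**Figure D1:**
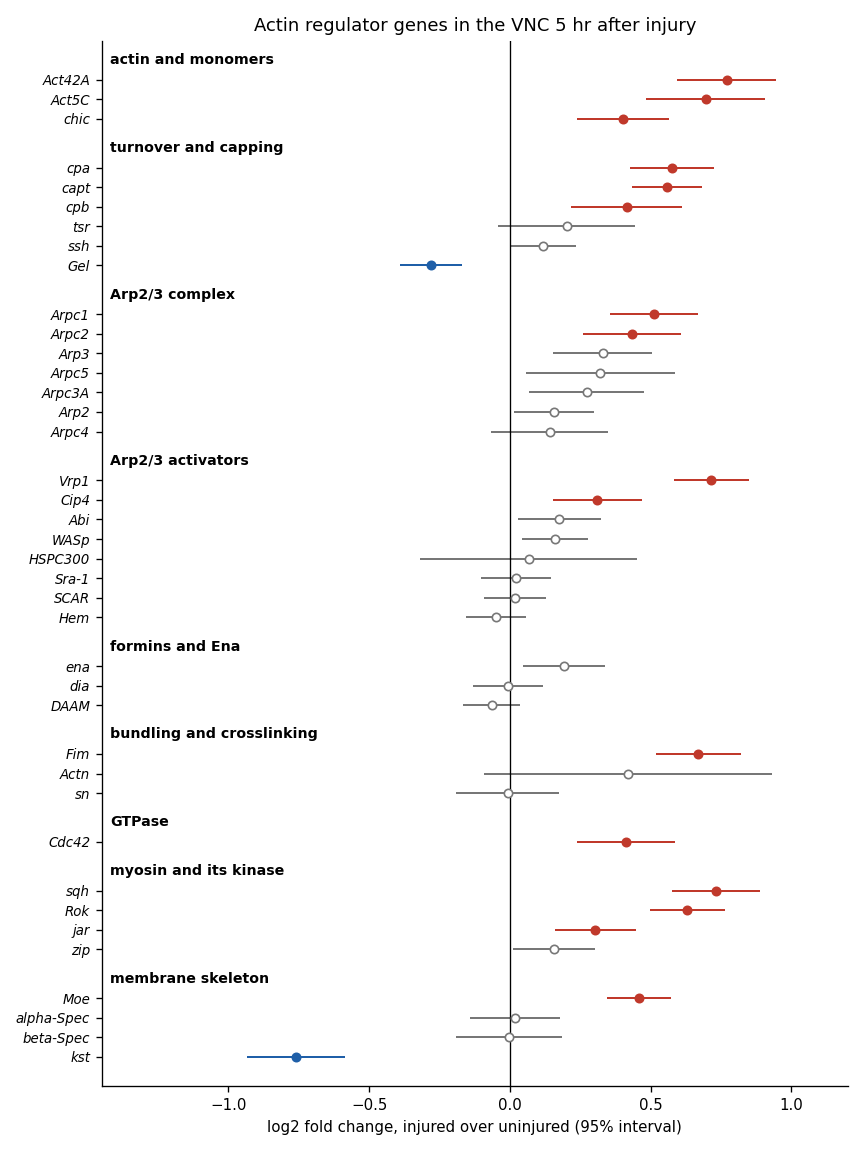
Log2 fold change of injured over uninjured VNCs for the genes tested, grouped by role, with 1 gene that did not pass not drawn, with 95% intervals from edgeR's quasi-likelihood fit of 5 libraries per group. Filled red points passed an adjusted p of 0.01 as higher (16 genes), filled blue points as lower (Gel and kst), and open grey points did not pass. The rows for actin and myosin lie to the right of 0, and SCAR, Sra-1, Hem, dia and DAAM lie near it.

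By role, the share of genes that were higher was uneven. Among all genes tested 7.55% were higher and 6.13% lower. Without injured library 3 these shares were 6.36% and 5.33%. All 3 genes for actin and its monomer carrier profilin were higher, with a median log2 fold change of 0.70, and 3 of 4 myosin and myosin kinase genes were higher, with a median of 0.47. Among the 6 turnover and capping genes 3 were higher and 1 lower, with a median of 0.31, and among the 3 bundling genes 1 was higher, with a median of 0.42, which is the value of Actn, a gene that did not pass. The 18 nucleation genes tested (Arp2/3 complex, its activators, formins and Ena) had 4 higher and 0 lower, with a median of 0.17. Within nucleation the medians were 0.32 for 7 Arp2/3 subunits, 0.11 for 8 activators and -0.01 for the 3 formin and Ena genes. Without injured library 3 the number higher was 3 for actin and monomers, 2 for myosin and its kinase, 2 for turnover and capping, 1 for bundling and 3 for nucleation, of which 2 were Arp2/3 subunits and 1 an activator. The medians were then 0.63 for actin and monomers, 0.47 for myosin and its kinase, 0.25 for turnover and capping, 0.58 for bundling and 0.16 for nucleation. The bundling median was 0.17 without injured library 4, and that of the activators was 0.06 without uninjured library 4. These are counts and medians of small groups, and the differences between roles were not tested.

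Both cytoplasmic actin genes were higher in injured VNCs. Act5C (FBgn0000042) had 2714, 2490, 2850, 2006 and 2377 CPM in injured libraries 1 to 5, against 1554, 1468, 1573, 1398 and 1685 CPM in uninjured libraries 1 to 5. Every injured library was above every uninjured one, with injured library 4 the nearest to them. Its log2 fold change was 0.70 (SE 0.10, edgeR adjusted p = 0.000176), or 1.62-fold. Act42A (FBgn0000043), the other cytoplasmic actin, had 106.7, 87.8, 101.7, 83.5 and 84.1 CPM in injured libraries, against 52.6, 56.7, 49.5, 56.1 and 57.4 CPM in uninjured libraries. Again no library overlapped, and the log2 fold change was 0.77 (SE 0.08, edgeR adjusted p = 1.45e-05). The coding sequences of the fly actin genes are nearly identical, so reads may have been divided between them in the counting, and a value for either gene alone is uncertain. The combined level of Act5C and Act42A per length was 609 ± 102 TPM in injured and 388 ± 16.4 TPM in uninjured libraries (SD, n = 5 each), and every injured library was above every uninjured one. The muscle actin genes are not in that sum, so reads divided with them could still enter it, which was not tested. Act5C made up 93.8% ± 0.44 of that sum in injured and 94.1% ± 0.56 in uninjured libraries, and this share overlapped between groups. Profilin, encoded by chic (FBgn0000308), had 150.9, 130.0, 141.9, 119.4 and 122.5 CPM in injured libraries, against 94.3, 109.1, 104.9, 104.0 and 91.0 CPM in uninjured libraries. Its groups did not overlap, and its log2 fold change of 0.40 (SE 0.07, edgeR adjusted p = 0.00169) was smaller than that of either actin.

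Among the turnover genes, the monomer recycler was higher and the severing protein gelsolin lower. The cyclase-associated protein gene capt (FBgn0028388), whose product recycles actin monomers, had 194.9, 220.5, 220.6, 200.1 and 217.5 CPM in injured libraries, against 153.7, 140.3, 149.2, 132.7 and 139.7 CPM in uninjured libraries. The lowest injured library was well clear of the highest uninjured one, and the log2 fold change was 0.56 (SE 0.06, edgeR adjusted p = 1.1e-05). Gel (FBgn0010225), the gelsolin gene, had 212.8, 192.5, 190.7, 183.5 and 194.7 CPM in injured libraries, against 229.3, 241.5, 240.0, 245.6 and 227.4 CPM in uninjured libraries. All injured libraries were below all uninjured ones, with a log2 fold change of -0.28 (SE 0.05, edgeR adjusted p = 0.00131), or 0.823-fold.

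Cofilin, the main filament-severing protein, is encoded by tsr (FBgn0011726), which had 73.1, 51.1, 67.5, 47.1 and 61.4 CPM in injured libraries, against 46.1, 54.3, 54.9, 52.1 and 54.1 CPM in uninjured libraries. Injured libraries 1, 3 and 5 were above the uninjured range and injured libraries 2 and 4 were within it. The gene did not pass, with a 95% interval of -0.04 to 0.45 on the log2 scale. The phosphatase that activates cofilin, slingshot (ssh, FBgn0029157), had 92.2, 97.2, 95.4, 103.4 and 93.0 CPM in injured libraries, against 90.0, 91.0, 90.3, 91.8 and 80.1 CPM in uninjured libraries. Its groups did not overlap but lay within a few CPM of each other. A log2 fold change of 0.12 (SE 0.05, edgeR adjusted p = 0.133) did not pass.

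Capping protein is a dimer that closes the growing end, and both subunit genes were called higher. The alpha subunit gene cpa (FBgn0034577) had 73.5, 60.4, 65.4, 61.1 and 63.3 CPM in injured libraries, against 44.4, 41.9, 41.9, 42.9 and 46.4 CPM in uninjured libraries. The groups were far apart, and the log2 fold change was 0.57 (SE 0.07, edgeR adjusted p = 4.63e-05). For the beta subunit gene cpb (FBgn0011570) the values were 36.9, 39.4, 41.4, 32.3 and 32.4 CPM in injured libraries, against 25.2, 28.4, 26.8, 25.5 and 30.9 CPM in uninjured libraries. Injured libraries 4 and 5 lay just above uninjured library 5. Its log2 fold change was 0.41 (SE 0.09, edgeR adjusted p = 0.00536), and cpb did not pass when any of injured libraries 1, 2 or 3 or uninjured libraries 1, 2, 3 or 4 was left out (edgeR adjusted p = 0.011 to 0.0199). The ratio of cpa to cpb per length was 1.60 ± 0.19 in injured and 1.43 ± 0.11 in uninjured libraries (SD, n = 5 each) and overlapped between groups. The ratio of Gel to cpa was 1.83 to 2.02 in injured and 3.10 to 3.65 in uninjured libraries, with no overlap. The pairs for ratios, here and below, were chosen with earlier results of these data known. Each ratio restates the values of its genes and was not tested.

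**Figure D2:**
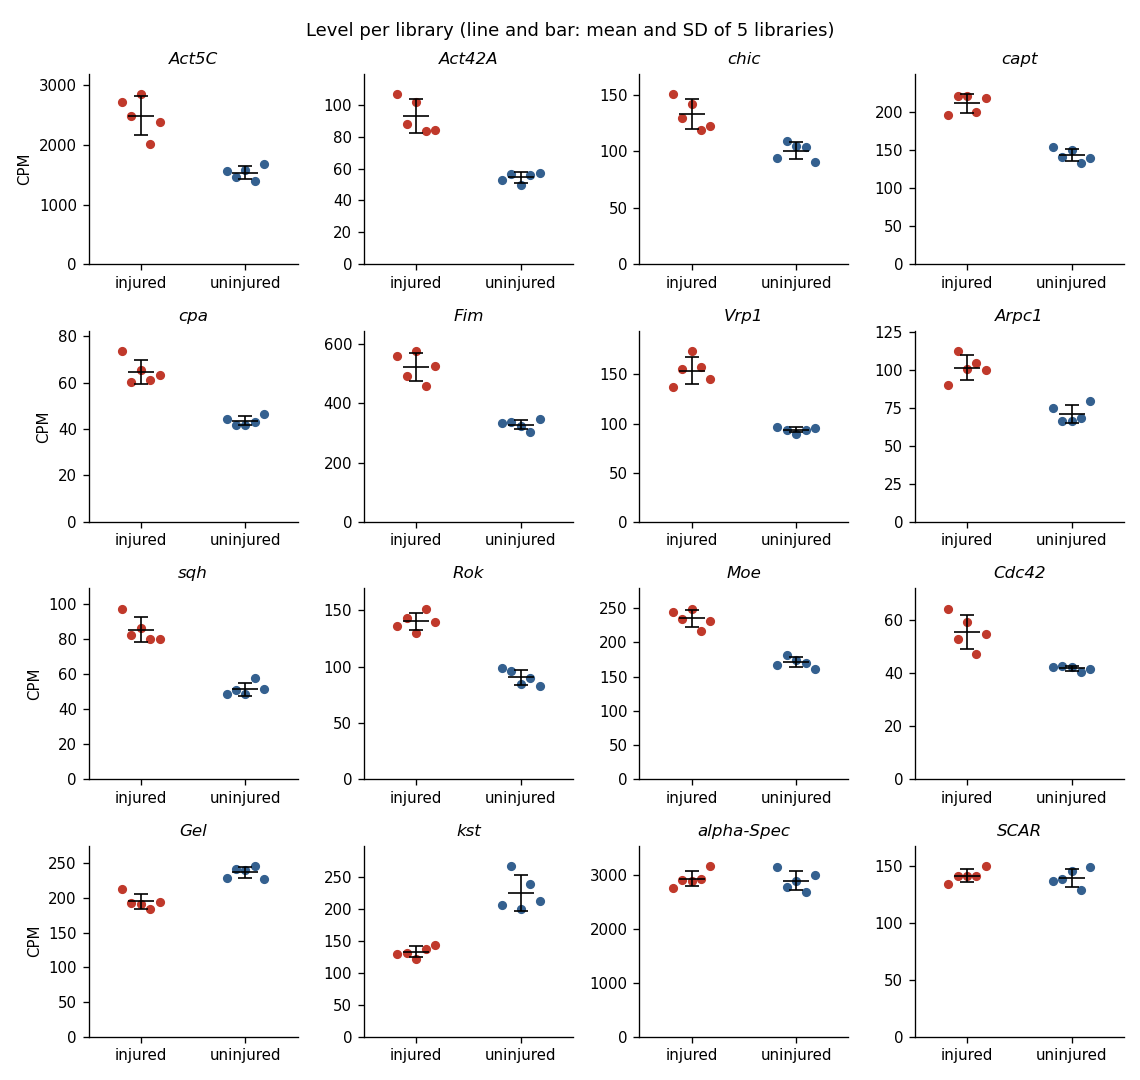
CPM of 16 actin regulator genes in each library, injured on the left and uninjured on the right, with the mean and SD of 5 libraries and a linear axis that starts at 0. The groups do not overlap in the first 14 panels (12 higher, and Gel and kst lower), and they overlap for alpha-Spec and SCAR.

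The Arp2/3 complex has 7 kinds of subunit, with a pair of genes, Arpc3A and Arpc3B, for one of them. In injured VNCs 2 of the 7 subunit genes tested were higher and 0 lower. Arpc1 (FBgn0001961) had 90.0, 112.3, 100.6, 104.6 and 100.3 CPM in injured libraries, against 75.1, 66.2, 66.5, 68.5 and 79.7 CPM in uninjured libraries. No library overlapped, and the log2 fold change was 0.51 (SE 0.07, edgeR adjusted p = 0.00018). Arpc2 (FBgn0032859) had 60.6, 51.9, 62.6, 52.6 and 54.8 CPM in injured libraries, against 38.5, 40.6, 41.8, 47.7 and 40.7 CPM in uninjured libraries. Here too the injured libraries were all above the uninjured ones, uninjured library 4 being the closest. Arpc2 had a log2 fold change of 0.43 (SE 0.08, edgeR adjusted p = 0.00156).

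By mean deposited TPM the highest subunit genes that did not pass were Arp2 and Arpc4, although Arpc4 (24.2 ± 4.34 TPM in injured and 22.7 ± 1.47 TPM in uninjured libraries) and Arp3 (24.1 ± 3.92 TPM in injured and 19.9 ± 1.06 TPM in uninjured libraries; SD, n = 5 each) were close. Arp2 (FBgn0011742), an actin-related subunit from which the branch grows, had 148.1, 132.5, 153.3, 124.0 and 149.6 CPM in injured libraries, against 122.0, 128.6, 135.2, 119.3 and 129.6 CPM in uninjured libraries. Its groups overlapped (log2 fold change 0.16, 95% interval 0.02 to 0.30, edgeR adjusted p = 0.101). Arpc4 (FBgn0031781) had 31.6, 26.2, 25.3, 22.2 and 25.4 CPM in injured libraries, against 25.4, 23.8, 21.8, 22.1 and 25.7 CPM in uninjured libraries, and only injured libraries 1 and 2 exceeded the uninjured range. Arp3, the other actin-related subunit, lay just outside the threshold, with 65.6 to 85.7 CPM in injured and 54.9 to 65.0 CPM in uninjured libraries and no overlap (log2 fold change 0.33, edgeR adjusted p = 0.0105). It passed without injured library 5 (adjusted p = 0.00822), without uninjured library 5 (adjusted p = 0.00643) and in DESeq2 (adjusted p = 0.00309). Arpc3A (log2 fold change 0.27) and Arpc5 (0.32) did not pass and overlapped.

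All 7 tested subunits had a positive log2 fold change, between 0.14 and 0.51. The summed level of the 8 subunit genes was 190.7, 164.1, 174.6, 147.7 and 155.2 TPM in injured libraries 1 to 5, against 138.0, 138.2, 137.6, 142.5 and 143.9 TPM in uninjured libraries 1 to 5. The injured sums were all higher, but they varied over a wider range than the uninjured sums. These TPM were not scaled by TMM, so the scale of each library enters this range. Arpc3B, the second gene for its subunit, was under the filter at 0.93 ± 0.13 TPM in injured and 0.79 ± 0.48 TPM in uninjured libraries (SD, n = 5 each). It had 6 to 7 counts in injured and 1 to 9 counts in uninjured libraries, which is too few to compare. Its mean share of the summed Arpc3A and Arpc3B level was 7.18% in injured libraries (range 5.60% to 8.96%). In uninjured libraries the mean share was 6.94% (range 1.46% to 10.5%).

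Of the 8 activator genes, 2, Vrp1 and Cip4, were higher, and none of the 5 genes of the SCAR complex passed. Vrp1 (FBgn0243516) encodes verprolin, the WIP-type partner that binds WASp. It had 137.2, 156.0, 173.4, 157.8 and 145.5 CPM in injured libraries, against 96.8, 93.7, 89.5, 93.5 and 95.3 CPM in uninjured libraries. The uninjured libraries were nearly level and all injured ones lay far above them. The log2 fold change of 0.72 (SE 0.06) had the lowest adjusted p of the 40 genes in edgeR's test, 2.37e-06. Cip4 (FBgn0035533), an F-BAR protein that binds curved membrane, had 93.2, 113.4, 118.6, 114.0 and 124.0 CPM in injured libraries, against 95.7, 91.8, 87.4, 84.4 and 94.97 CPM in uninjured libraries. Injured library 1 was within the uninjured range, so Cip4 was the only gene of the 18 called whose groups overlapped. Its log2 fold change was 0.31 (SE 0.07, edgeR adjusted p = 0.00809), the value nearest to the threshold among those that passed. It passed when injured library 1 was left out and not when any other single library was (edgeR adjusted p = 0.0127 to 0.0298).

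WASp itself had 82.7 to 93.3 CPM in injured and 73.9 to 83.2 CPM in uninjured libraries, with an overlap of under 1 CPM, and did not pass (log2 fold change 0.16, edgeR adjusted p = 0.0491). The ratio of Vrp1 to WASp per length was 1.07, 1.31, 1.45, 1.27 and 1.09 in injured libraries, against 0.809, 0.832, 0.784, 0.880 and 0.888 in uninjured libraries. Every injured ratio was above every uninjured one.

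The SCAR complex activates Arp2/3 below Rac. Of its 5 genes 0 were called by edgeR, DESeq2 or limma-voom, and 1 had an unadjusted p under 0.05 in edgeR. SCAR (FBgn0041781), its activating subunit, had 134.1, 141.0, 140.6, 140.9 and 149.6 CPM in injured libraries, against 136.8, 138.5, 145.0, 128.5 and 148.5 CPM in uninjured libraries. These ranges nearly coincide, and the 95% interval of the log2 fold change was -0.09 to 0.13. Sra-1 (FBgn0038320), the subunit that binds Rac, had 175.2, 153.9, 150.7, 180.2 and 159.4 CPM in injured libraries, against 168.7, 163.4, 157.4, 157.1 and 160.7 CPM in uninjured libraries. The injured libraries lay on both sides of the uninjured ones, with an interval of -0.10 to 0.15. Hem, Abi and HSPC300 had log2 fold changes of -0.05, 0.17 and 0.07, and none passed. HSPC300 was measured at 21 to 36 counts in injured and 20 to 38 counts in uninjured libraries, and its interval of -0.32 to 0.45 was the widest of the 5.

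Of the 3 formin and Ena genes 0 were called by edgeR, DESeq2 or limma-voom, and 1, ena, had an unadjusted p under 0.05 in edgeR. DAAM (FBgn0025641), a formin of the diaphanous-related group, had 151.2, 157.4, 168.7, 152.8 and 156.7 CPM in injured libraries, against 172.9, 163.4, 166.1, 164.2 and 156.5 CPM in uninjured libraries. Injured libraries 1 and 4 were below the uninjured range and the others within it, and the interval was -0.17 to 0.04. For dia (FBgn0011202), a formin needed in cell division, the values were 116.8, 117.3, 123.6, 113.7 and 110.3 CPM in injured libraries, against 127.5, 119.1, 121.6, 107.9 and 108.3 CPM in uninjured libraries. All injured libraries lay within the uninjured range, and the interval was -0.13 to 0.12. The gene ena, whose product protects growing ends from capping, had 70.1 to 86.4 CPM in injured and 66.5 to 75.6 CPM in uninjured libraries. Its log2 fold change of 0.19 did not pass (edgeR adjusted p = 0.0565). Without injured library 1, the lowest of its group, it was 0.23 and passed (adjusted p = 0.00718).

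The 3 bundling and crosslinking genes differed from each other. Fim (FBgn0024238), the fimbrin gene, which packs filaments into tight bundles, had 559, 493, 575, 458 and 525 CPM in injured libraries, against 332, 338, 322, 303 and 347 CPM in uninjured libraries. The lowest injured library was above the highest uninjured one by more than the whole uninjured range. Its log2 fold change was 0.67 (SE 0.07, edgeR adjusted p = 1.21e-05), or 1.59-fold. Fascin, encoded by sn (FBgn0003447), bundles the filaments of filopodia and bristles. It had 44.8, 51.9, 56.1, 54.3 and 45.9 CPM in injured libraries, against 55.3, 55.1, 48.3, 49.6 and 45.9 CPM in uninjured libraries. The groups overlapped almost fully, and the interval was -0.19 to 0.17. The ratio of Fim to sn per length was 12.4, 9.43, 10.2, 8.36 and 11.3 in injured libraries, against 5.96, 6.08, 6.60, 6.06 and 7.49 in uninjured libraries, with no overlap.

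Alpha-actinin, encoded by Actn (FBgn0000667), crosslinks filaments in nonmuscle cells and in the Z discs of muscle. It had 105.2, 141.6, 66.8, 217.2 and 131.6 CPM in injured libraries, against 91.1, 120.2, 105.7, 94.5 and 82.3 CPM in uninjured libraries. Injured library 3 was below all uninjured libraries, and injured library 4 was far above them. The log2 fold change of 0.42 had the largest SE of the 40 genes, 0.24, and did not pass (edgeR adjusted p = 0.22). Without injured library 3 it was 0.58 (edgeR adjusted p = 0.0407), and without injured library 4 it was 0.17 (edgeR adjusted p = 0.582). In both groups the order of the libraries by Actn was the order by the summed level of 18 muscle marker genes, and Actn was the only one of the 41 genes for which this held. That sum was 3445, 5084, 1134, 9045 and 4438 CPM in injured libraries, against 2448, 3986, 3334, 3180 and 2410 CPM in uninjured libraries. Of 17 muscle markers tested 0 were called by edgeR, DESeq2 or limma-voom with all libraries, 5 had an unadjusted p under 0.05 in edgeR, and 6 were higher without injured library 3. The part of muscle RNA in the Actn values was not tested. Other genes also lie over 24.4% of the Actn exon bases in the current annotation, and whether reads were assigned by strand is not stated.

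**Figure D3:**
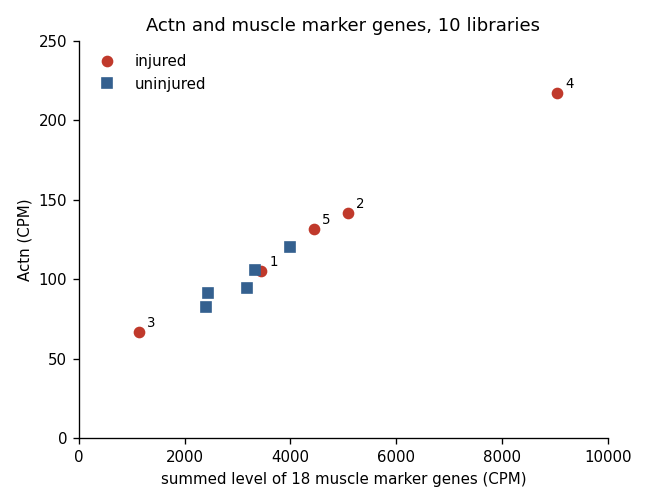
Actn CPM against the summed CPM of 18 muscle marker genes in each library, with injured libraries as numbered red circles and uninjured libraries as blue squares. Injured library 3 is lowest on both axes (1134 and 66.8 CPM) and injured library 4 highest on both (9045 and 217.2 CPM).

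The GTPase Cdc42 was higher. Cdc42 (FBgn0010341), the switch above WASp, had 64.2, 52.9, 59.2, 47.3 and 54.5 CPM in injured libraries, against 42.2, 42.5, 42.4, 40.4 and 41.4 CPM in uninjured libraries. The uninjured libraries were within a few CPM of each other, and every injured library was above them. For Cdc42 the log2 fold change was 0.41 (SE 0.08, edgeR adjusted p = 0.0023).

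The light chain of nonmuscle myosin II and the kinase that acts on it were higher, while the heavy chain was not called. The regulatory light chain gene sqh (FBgn0003514) had 97.2, 82.6, 86.1, 80.1 and 80.1 CPM in injured libraries, against 48.5, 50.6, 48.5, 57.6 and 51.5 CPM in uninjured libraries. The groups were far apart, and the log2 fold change was 0.73 (SE 0.07, edgeR adjusted p = 8.2e-06), or 1.66-fold. Rok (FBgn0026181), the gene of a kinase that phosphorylates this light chain, had 135.8, 143.3, 130.2, 151.4 and 140.1 CPM in injured libraries, against 98.4, 96.0, 85.0, 90.0 and 83.2 CPM in uninjured libraries. No library overlapped, and the log2 fold change was 0.63 (SE 0.06, edgeR adjusted p = 6.79e-06).

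The heavy chain gene zip (FBgn0005634) had 311.5, 396.9, 362.5, 392.8 and 388.6 CPM in injured libraries, against 345.3, 334.9, 324.8, 325.0 and 332.2 CPM in uninjured libraries. Injured library 1 was below all uninjured libraries and the other injured libraries were above them. The log2 fold change was 0.16 (SE 0.07, edgeR adjusted p = 0.11), and without injured library 1 it was 0.20 and passed (adjusted p = 0.00623). The ratio of sqh to zip per length was 1.51, 1.01, 1.15, 0.988 and 0.998 in injured libraries, against 0.680, 0.732, 0.724, 0.859 and 0.751 in uninjured libraries. Every injured ratio was above every uninjured one, and injured library 1 had the highest. This restates the values of sqh and zip, a pair chosen with earlier results known. Myosin VI, a motor that walks toward the filament end opposite to the growing one, is encoded by jar (FBgn0011225). It had 373.8, 415.3, 416.0, 448.2 and 471.7 CPM in injured libraries, against 364.9, 337.3, 343.1, 321.5 and 355.1 CPM in uninjured libraries. The groups met between injured library 1 and uninjured library 1 without overlapping, and the log2 fold change was 0.30 (SE 0.07, edgeR adjusted p = 0.00506). It did not pass when any of injured libraries 2, 3, 4 or 5 or uninjured libraries 2, 3 or 4 was left out (edgeR adjusted p = 0.0122 to 0.0216).

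In the membrane skeleton moesin was higher, the heavy spectrin was lower and the main spectrins were not called. Moe (FBgn0011661), which ties filaments to membrane proteins, had 244.2, 233.4, 248.9, 216.5 and 231.7 CPM in injured libraries, against 166.8, 181.9, 174.7, 170.2 and 161.5 CPM in uninjured libraries. The injured libraries were all above the uninjured ones, with a log2 fold change of 0.46 (SE 0.05, edgeR adjusted p = 3.19e-05). The beta heavy spectrin gene kst (FBgn0004167), known from the apical membrane of epithelia, had 129.8, 131.2, 122.0, 137.6 and 144.2 CPM in injured libraries, against 206.3, 267.3, 199.5, 238.9 and 213.5 CPM in uninjured libraries. No library overlapped. Its log2 fold change of -0.76 (SE 0.08, edgeR adjusted p = 1.6e-05), or 0.591-fold, was close in size to the largest increase among the 40 genes, that of Act42A.

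Alpha-spectrin (alpha-Spec, FBgn0250789) pairs with either beta chain. It had 2772, 2921, 2900, 2935 and 3169 CPM in injured libraries, against 3147, 2778, 2889, 2692 and 3002 CPM in uninjured libraries. The groups covered nearly the same range (log2 fold change 0.02, interval -0.14 to 0.18). The conventional beta chain (beta-Spec, FBgn0250788) had 2727, 2855, 2896, 3047 and 3323 CPM in injured libraries, against 3215, 2772, 2910, 2686 and 3312 CPM in uninjured libraries, and its interval was -0.19 to 0.18. The ratio of alpha-Spec to beta-Spec per length was 0.94 ± 0.03 in injured and 0.93 ± 0.04 in uninjured libraries (SD, n = 5 each). The ratio of kst to beta-Spec was 0.0241 to 0.0273 in injured and 0.0368 to 0.0552 in uninjured libraries, with no overlap.

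**Figure D4:**
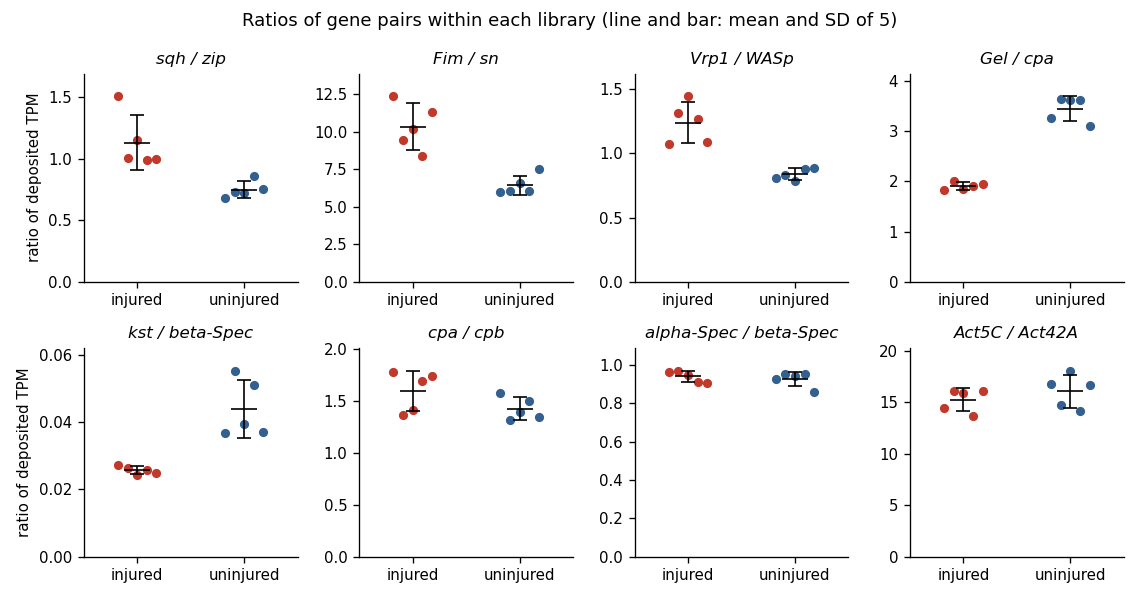
Ratios of deposited TPM for 8 pairs of genes within each library, injured on the left and uninjured on the right, with the mean and SD of 5 libraries. The pairs were chosen with earlier results known. The injured libraries lie above the uninjured ones for sqh/zip, Fim/sn and Vrp1/WASp and below them for Gel/cpa and kst/beta-Spec, and the groups overlap for cpa/cpb, alpha-Spec/beta-Spec and Act5C/Act42A.

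Per length, the 41 genes spanned a wide range of levels. Act5C had the highest level, 571 ± 96.5 TPM in injured and 365 ± 17.1 TPM in uninjured libraries, followed by beta-Spec (246 ± 10.2 TPM in injured and 257 ± 19.0 TPM in uninjured libraries) and alpha-Spec (231 ± 6.18 TPM in injured and 238 ± 12.5 TPM in uninjured libraries; SD, n = 5 each). In both groups beta-Spec and alpha-Spec did not differ beyond their spread. These 3 genes made up 50.04% ± 1.07 of the summed TPM of the 41 genes in injured and 49.3% ± 1.73 in uninjured libraries. Fim was the fourth in both groups, at 101.2 ± 13.1 TPM in injured and 66.1 ± 2.41 TPM in uninjured libraries. Of the 40 pairs of neighbours in the order, 8 in injured and 7 in uninjured libraries were further apart than their summed SDs, among them Act5C and beta-Spec and alpha-Spec and Fim in both groups. The other neighbours did not differ beyond their spread. Gel was at rank 10 in injured and rank 6 in uninjured libraries, kst at rank 39 in injured and rank 33 in uninjured libraries, and Vrp1 at rank 18 in injured and rank 25 in uninjured libraries. HSPC300 and Arpc3B were the lowest in both groups.

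**Figure D5:**
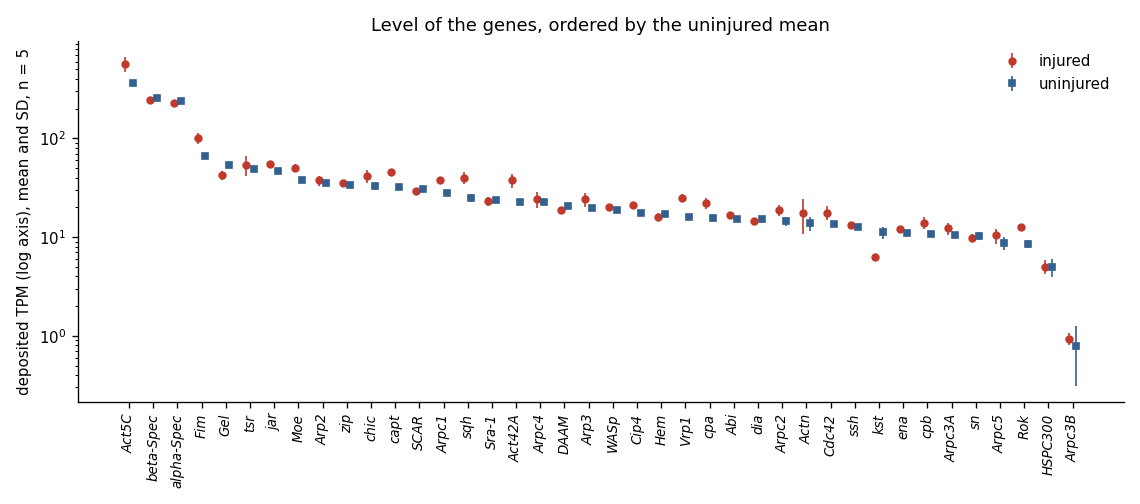
Deposited TPM of the genes on a log axis, with 1 of the 41 not drawn, ordered by the uninjured mean, with injured libraries as red circles and uninjured libraries as blue squares (mean and SD, n = 5 each). Act5C, beta-Spec and alpha-Spec stand above the rest in both groups, and kst and Gel lie lower in injured than in uninjured libraries.

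The median SE of the log2 fold change was 0.07 both for the 16 genes that were higher and for the 22 that did not pass, against 0.10 for all genes tested. Of the 22 genes that did not pass, 12 had a 95% interval that lay wholly within 0.3 of 0 on the log2 scale. The longest transcripts had a median of 2.48 kb for the 16 genes that were higher and 3.24 kb for the 22 that did not pass. That median was 1.95 kb for all genes tested, and the lower genes Gel and kst had 3.03 kb and 13.8 kb. The 16 genes lie on chromosome arms X (6 genes), 2L (5 genes), 2R (3 genes), 3L (1 gene) and 3R (1 gene), and the lower genes Gel and kst lie on 3R and 3L. The 22 that did not pass lie on X (5 genes), 2L (4 genes), 2R (5 genes), 3L (3 genes) and 3R (5 genes). The share of all genes tested that were higher was not computed by arm. In the current annotation 25 of the 41 genes share no exon base with another gene. Over 5% of exon bases are shared in 6 genes, which are Actn (24.4%), Arpc5 (13.4%), Sra-1 (9.90%), SCAR (6.13%), Cdc42 (5.73%) and cpa (5.42%), and reads in those bases could belong to either gene.

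Further actin genes outside the 41 included some with larger changes. Of 53 such genes 52 were found in the count table (Myo10A was not matched), 49 were tested, and 14 were higher and 1 lower, with a median log2 fold change of 0.18. Among all genes tested 7.55% were higher and 6.13% lower, with a median of -0.0009. The 6 further actin genes with the largest change were all higher. RhoL (FBgn0014380), a small GTPase, had 55.6 ± 9.79 CPM in injured and 13.9 ± 2.38 CPM in uninjured libraries (SD, n = 5 each; log2 fold change 2.00, edgeR adjusted p = 5.25e-07). The filamin gene cher (FBgn0014141) had 689 ± 83.5 CPM in injured and 209.2 ± 17.7 CPM in uninjured libraries (log2 fold change 1.72, edgeR adjusted p = 2.97e-08). Myo31DF, an unconventional myosin I, had a log2 fold change of 1.52, and Rac2, a Rac GTPase above the SCAR complex, had 1.15. Mlc-c, the essential light chain of nonmuscle myosins, had 0.89, and GMF, a debranching factor, had 0.82. The lower gene, named after its value was seen, was the protein kinase N gene pkn (log2 fold change -0.26, edgeR adjusted p = 0.00252). Among 12 genes of the Rac branch 2 were higher, with a median of 0.13, and among 7 other turnover genes 4 were higher, with a median of 0.53.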

How the data were processed

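RNA from pooled VNCs was depleted of ribosomal RNA and sequenced as single reads by the authors, who aligned it with BWA in GeneSifter to the Release 5.57 fly genome and deposited estimated counts per gene. No count was further than 0.00063 from a whole number, so all were rounded, and 12.4% of them were 1, the lowest value. The TPM values deposited by the authors follow the formula of RPKM, counts divided by the length of the longest transcript and by the mapped reads, without TMM factors. No version of either tool was given in the sources used here. The authors' columns of fold changes and p-values were not used, and the number of unused columns with values per sample was 0.

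Of 14352 genes, 1 held a value that was not a number and 4986 were under the filter (mean TPM above 2 in at least 1 group), which left 9365. Counts were tested in edgeR 4.0.16 (R 4.3.3) with TMM factors, a quasi-likelihood fit of all 10 libraries without covariates, and Benjamini-Hochberg adjustment over all 9365 genes, with an adjusted p of 0.01 as the threshold. CPM are counts scaled to a common total after TMM. Alternatives were limma 3.58.1, DESeq2 1.42.0, other normalizations, filters and thresholds, leaving out each library, and the column number as a block. The scripts were tested on simulated data. Libraries are numbered by the columns of the count table, which were not tied to single replicate labels, and p-values measure the spread between pools. Members, lists and gene pairs were chosen with earlier results of these data known. Every called gene is named with its value in each library, as are the 2 genes not called with the highest mean TPM in each role. The 6 called genes with the largest change are named of the further actin genes. Exon overlaps and chromosome arms come from a later annotation (BDGP6.54). Gene sequences were not used here. Values of 1 member that was not called are not reported here.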

Additional observations from a re-analysis of the deposited data

Results flagged for a closer look

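In 82 groups of 5 libraries (41 genes in injured and in uninjured VNCs), 4 had a library far from the others by Dixon's criterion, for which chance gives about 1 in 20 groups. For ena, injured library 1 was the lowest at 70.1 CPM, with the other injured libraries at 81.9 to 86.4 CPM. For ssh, uninjured library 5 was the lowest at 80.1 CPM, with the others at 90.0 to 91.8 CPM. For Arp3, uninjured library 5 was the highest at 65.0 CPM, with the others at 54.9 to 57.6 CPM. For Arpc3A, uninjured library 3 was the highest at 19.9 CPM, with the others at 16.3 to 17.2 CPM. None of these 4 genes was called with all libraries, and ena and Arp3 passed when the library named here was left out.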

How the results depend on the processing

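Across 20 alternatives the number of the 40 genes that were higher ran from 11 to 18, against 16, and the number lower was 2 in each. Leaving out single libraries gave 13 to 17 higher. Of the 18 genes called, 12 passed in all 20 alternatives, and chic, Arpc2 and Cdc42 passed in 18, jar in 11, cpb in 8 and Cip4 in 4. The fits of limma on log2(TPM + 0.5) and log2(TPM + 2), in which chic, Arpc2 and Cdc42 did not pass, gave 11 higher each. Among all genes tested these fits called 494 higher and 552 lower, and 493 higher and 545 lower, against 707 higher and 574 lower. At an adjusted p of 0.05, 1165 genes were higher and 1073 lower among all genes tested. Leaving out single libraries gave 531 to 873 higher and 442 to 683 lower.

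Same-numbered columns of the groups had correlations of their deviations from -0.14 to 0.30, over 0.1 in 3 of 5 pairs, and 2 of 5 columns correlated best with their own number. Since neither held for all 5 and no label ties the numbers, they were not taken as pairs. With the replicate block 13 of the 40 genes were higher and 2 lower (cpb, Cip4 and jar did not pass), and 619 of all genes were higher and 551 lower.

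Changes of sign occurred only for 7 genes near 0 that were not called under any alternative. With library totals alone the log2 fold changes were -0.0042 for SCAR, -0.0008 for Sra-1 and -0.0036 for alpha-Spec. With no low-value filter they were 0.0101 for dia, 0.0103 for sn and 0.0104 for beta-Spec. With log2(TPM + 0.5) they were -0.0394 for SCAR, -0.0399 for Sra-1 and -0.0395 for alpha-Spec, and with log2(TPM + 2) they were -0.0375 for SCAR, -0.0373 for Sra-1 and -0.0393 for alpha-Spec. Leaving out single libraries gave -0.0244 to 0.0415 for SCAR, -0.0145 to 0.0378 for Sra-1, -0.0214 to 0.0495 for alpha-Spec, -0.0538 to 0.0364 for beta-Spec, -0.049 to 0.0259 for dia, -0.0612 to 0.0246 for sn and -0.022 to 0.1798 for HSPC300. The causes were not tested. Arpc3B and HSPC300 had under 40 counts in every library, which limits the precision of their values.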
